A study of Arabidopsis thaliana with 27 samples.

Results

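Across 26 root libraries of Arabidopsis thaliana, 126 protein-coding genes were held in either of 2 states according to plant line. They were taken from a table of 34262 genes, of which 27628 are protein-coding. Members were chosen by these values themselves, and a gene was included when its lowest normalized count in 1 set of libraries (reads divided by a size factor per library) was above 4 times its highest in the other set plus 20. One set was the 14 libraries of both ICT1 lines and the other the 12 libraries labelled Col. Of these genes, 85 were higher in the lines and 41 were lower in the lines. Genes whose names begin with PER, CYP, UGT, ABC, DTX, WRKY, MYB or NAC were left out, as were AT4G00650 and AT5G10140. Together these exclusions removed 4 genes that met the rule. With them, 130 of the 20588 protein-coding genes with enough reads to be tested, or 0.631%, met the rule. The difference between lines and Col chose these genes, so its size is given as a description and is not tested. All 126 passed the filter on low counts, which the high state alone was enough to pass.

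Each library was made from the roots of 10-day-old seedlings, 20 to a treatment, grown in liquid medium. ICT1-2 and ICT1-8098 are homozygous lines labelled as overexpressing s30, a small ribosomal subunit gene, under the s35 promoter. ICT1-2 carries a transgene made in the laboratory and ICT1-8098 comes from a FOX overexpression library, so each genotype is represented by a single line. The wild type is labelled Col-0. DMSO (NT) or indole-3-carbinol (I3C), which forms when indole glucosinolates are broken down, was added to the medium for 2 h at 200 µM or 400 µM I3C. In the wounding group of Col (Col_w) tweezers were applied 3 times to each leaf, 8 h before the roots were collected. The line groups were ICT1-2_200, ICT1-2_400, ICT1-2_NT, ICT1-8098_200 and ICT1-8098_NT, with 3 libraries each except ICT1-2_NT, for which 2 of 3 labelled samples were analysed. The groups Col_200, Col_400, Col_w and Col_NT had 3 libraries each.

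Accessions of A. thaliana differ by the presence, sequence and activity of many genes, and those that recognise pathogens are among the most variable. Intracellular receptors of the nucleotide-binding leucine-rich repeat (NLR) class detect pathogen effectors or the damage these cause. Their amino-terminal part is of the TIR or the coiled-coil (CC) type, and neighbouring NLR genes can work as pairs. The reference genome was built from Col-0, and every gene described here is annotated in it. Yet 14 protein-coding genes with at least 20 normalized counts in every line library had no read in any library labelled Col, and 0 showed the opposite pattern, or 13 members when ICT1-8098_NT replicate 5, which stands apart, is left out. Whether the plants labelled Col are the stock of the reference was not tested, so higher and lower below are relative to those libraries as labelled.

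Libraries held 9503924 to 19433428 reads, so that 3 reads correspond to 2.32 to 5.54 normalized counts. Of the 3 S30 genes (RPS30A copies), AT2G19750 averaged 8303 ± 486 normalized counts in ICT1-8098_200 and 5743 ± 821 in ICT1-8098_NT (SD, n = 3 each). It averaged 2149 to 2551 in the 3 groups labelled ICT1-2, against 2313 to 2948 in the 4 Col groups. AT5G56670 and AT4G29390 were no higher in either line than in Col, so the libraries labelled ICT1-2 showed no raised S30 RNA. Reads of these near-identical copies are uncertain. All 9 root markers were detected on both sides, with summed levels of 3547 to 11203 normalized counts in line libraries and 3001 to 15800 in Col libraries. The 9 shoot markers summed to 304 to 1492 in line libraries and to 1063 to 4546 in Col libraries, with 1 of them at 0 in each. The summed shoot markers thus ran lower in the lines, with ranges that overlapped. Of the 8 shoot markers tested, 0 had every line library below, or above, every Col library. Their part in the results below was not tested. In bulk roots, fewer cells of a type and less RNA per cell cannot be told apart.

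The sequence before the gene start is shown for 5 of the 85 genes higher in the lines. These are the ones called as raised by I3C in at least 1 line contrast, in a fit of all 26 libraries. They all belong to disease resistance families and were at or near 0 in Col. Each run is the 250 bases directly upstream of the annotated start in TAIR10.1, 5′ to 3′ on the gene's strand, read from the RefSeq genome. Capitals mark TTGAC on either strand, the core of the W-box that WRKY transcription factors bind.
HR4: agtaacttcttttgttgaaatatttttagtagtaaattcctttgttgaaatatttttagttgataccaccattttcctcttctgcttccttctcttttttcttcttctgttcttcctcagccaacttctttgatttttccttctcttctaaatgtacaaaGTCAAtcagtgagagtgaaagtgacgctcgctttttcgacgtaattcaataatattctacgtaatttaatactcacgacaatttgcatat
AT4G19520: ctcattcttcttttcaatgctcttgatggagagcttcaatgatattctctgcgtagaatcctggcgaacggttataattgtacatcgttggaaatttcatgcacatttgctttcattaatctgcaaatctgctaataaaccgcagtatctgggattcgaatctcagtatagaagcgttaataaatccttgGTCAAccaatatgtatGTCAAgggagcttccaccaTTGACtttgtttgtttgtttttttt
AT5G05400: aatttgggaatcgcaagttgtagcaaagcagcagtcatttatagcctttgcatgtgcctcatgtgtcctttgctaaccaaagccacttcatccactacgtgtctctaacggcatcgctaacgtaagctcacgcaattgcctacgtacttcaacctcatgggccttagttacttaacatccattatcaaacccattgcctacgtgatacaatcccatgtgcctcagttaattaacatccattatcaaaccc
AT5G45240: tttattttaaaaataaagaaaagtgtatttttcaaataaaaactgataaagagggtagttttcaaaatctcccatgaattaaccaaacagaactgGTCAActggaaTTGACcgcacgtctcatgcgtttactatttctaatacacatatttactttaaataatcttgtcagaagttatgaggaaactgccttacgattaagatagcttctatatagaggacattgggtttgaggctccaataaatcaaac
AT5G51630: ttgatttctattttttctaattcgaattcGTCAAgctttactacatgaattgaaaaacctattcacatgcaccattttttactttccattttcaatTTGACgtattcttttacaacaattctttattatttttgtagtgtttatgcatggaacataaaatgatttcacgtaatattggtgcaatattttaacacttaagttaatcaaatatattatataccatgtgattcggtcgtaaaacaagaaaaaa
The HR4 window is chr3:18732771-18733020 on the plus strand, and that of AT4G19520 is chr4:10647281-10647530 on the minus strand. That of AT5G05400 is chr5:1601256-1601505 on the minus strand. The windows of AT5G45240 and AT5G51630 are chr5:18313456-18313705 and chr5:20968878-20969127, both on the plus strand. No window overlaps another gene of the table. TTGAC occurs 3 times before AT4G19520, 2 times each before AT5G45240 and AT5G51630, once before HR4 and not before AT5G05400, counting both strands as for the other motifs. Of 27413 protein-coding genes, 44.9% hold it at least once in such a window and 14.1% hold it 2 or more times. Of the 85 members higher in the lines 50.6% hold it, and of the 41 lower in the lines 56.1%. TGACG, the core bound by TGA factors, occurs 2 times before AT5G51630, both overlapping TTGAC, once before HR4, and in 18.6% of all windows. TATAAA occurs once before AT5G05400 and in 47.4% of all windows. These matches describe letters in the reference and no binding was measured.

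Both states were wide apart for most members. Among the 85 genes higher in the lines, the median over the 14 line libraries ran from 37.5 to 4089 normalized counts, with a median of 250 over genes. Their median over the 12 Col libraries was 0 for 45 genes and reached 236 for 1 gene. In Col, 40 of the 85 had no more than 3 reads in any library and 14 had none at all. The 41 genes lower in the lines had line medians of 0 to 102, with 27 at 0, and Col medians of 48.8 to 2450. The rule bounds the low state by the lowest value of the high state, so a gene with a modest high state could be picked only with a low state near 0. Of the 85 and the 41 genes, 12 and 5 averaged 10 or more normalized counts in the low state.

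**Figure D1:**
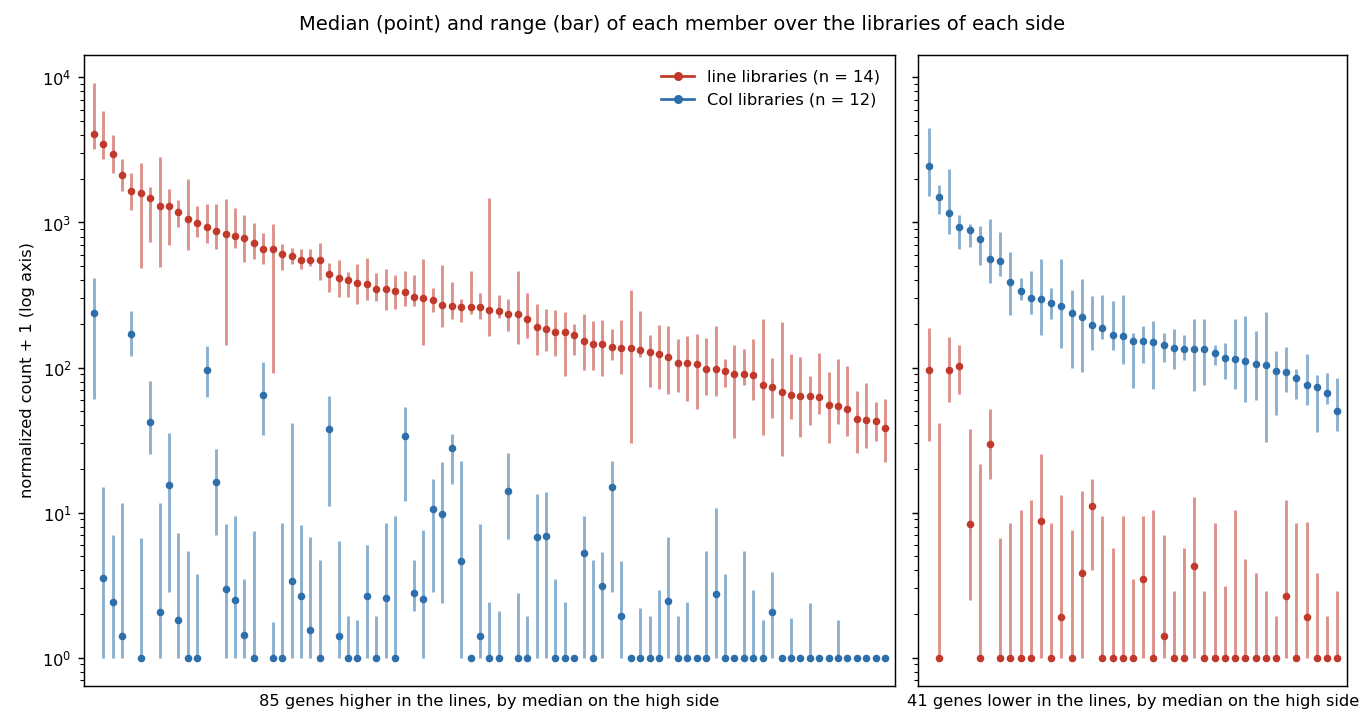
Normalized count + 1 (log axis) of each of the 126 genes, with the median as a point and the lowest to highest library as a bar, for line libraries (n = 14) and Col libraries (n = 12). The 85 genes higher in the lines are on the left and the 41 lower in the lines on the right, and 45 and 27 of them have a median of 0 on the low side.

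The rule also bounds the lowest library of the high state, which favours genes with a narrow range there. The highest library of the high state was a median of 2.14 times the lowest for genes higher in the lines and 2.35 times for genes lower in the lines. That ratio was under 2 for 37 of the 85 and 16 of the 41. It was 4 or more for 9 and 3 genes and reached 11.8 and 8.16. Annotated gene length was a median of 2093 bp and 1430 bp in the higher and lower genes, against 2361 bp over all tested protein-coding genes.

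One line library stood apart. Leaving aside members that averaged 10 or more in the low state, 36 genes lower in the lines remain. ICT1-8098_NT replicate 5 had reads in 35 of these 36, at a median of 3.07% of the Col median. The other 13 line libraries had reads in 5 to 11 of them. Their normalized counts summed to 271 in this library and to 24.6 to 47.8 in the others. It held the highest line value for 29 of the 36. On the other side, Col libraries had reads in 17 to 37 of the 73 corresponding genes, with no library near the total. With that library, 0 of the 41 were at 0 in every line library. Without it, 13 of 41 were at 0 in all 13 remaining line libraries. The number with at most 3 reads in every line library was 10 with it and 27 without it. The rule picked 130 genes without it, among them all 126. Where those reads came from was not tested.

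**Figure D2:**
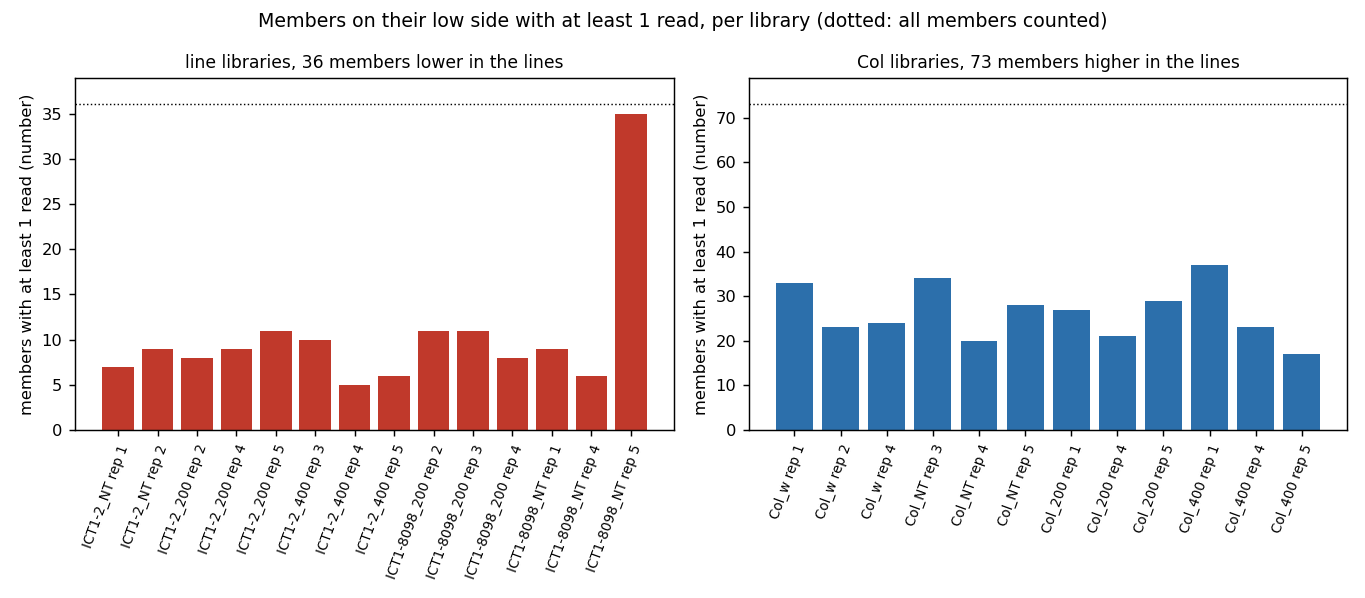
Number of members with at least 1 read on their low side, per library, for 36 genes lower in the lines (line libraries) and 73 genes higher in the lines (Col libraries), with dotted lines at 36 and 73. ICT1-8098_NT replicate 5 has reads in 35 of 36 genes and the other line libraries in 5 to 11.

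Among the genes higher in the lines, disease resistance was the largest of the 6 named product classes counted, leaving uncharacterized proteins aside. Their product names carry "disease resistance" in 14 of 85 cases (16.5%), in 0 of the 41 genes lower in the lines, and in 158 of the 20588 tested protein-coding genes (0.767%). They include AT4G19520, AT5G45240, AT5G51630, AT5G05400, AT2G17060, CSA1, AT1G15890 and AT5G36930. CSA1, a TIR-type NLR, ran from 118 to 247 in line libraries (median 176) and from 0 to 2.47 in Col libraries (median 0). HR4, a homolog of the powdery mildew resistance gene RPW8 whose product name lacks those words, ran from 142 to 1457 in line libraries (median 827) and from 0 to 7.38 in Col libraries.

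Other classes were smaller. Lectins and phloem protein 2 genes made up 5 of 85 (5.88%), 0 of 41 and 0.743% of tested genes. Phloem protein 2 genes encode carbohydrate-binding proteins of the phloem lectin family. PP2A8 ran from 642 to 1982 in line libraries and from 0 to 4.43 in Col libraries, and PP2A6 from 532 to 1131 and from 0 to 2.47. Proteins with a cysteine- and histidine-rich C1 domain made up 5 of 85 (5.88%), 1 of 41 (2.44%) and 0.622% of tested genes. Uncharacterized proteins made up 23 of 85 (27.1%) and 14 of 41 (34.1%), against 6.51% of tested genes. Kinases made up 3 of 85 (3.53%) and 3 of 41 (7.32%), against 5.68% of tested genes.

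Of the 8 genes higher in the lines with the most normalized counts, GSL-OH encodes the oxygenase that hydroxylates the butenyl glucosinolate side chain. It ran from 3216 to 9103 in line libraries (median 4089) and from 59.7 to 412 in Col libraries (median 236), so its low state was not silent. PLDGAMMA2, a phospholipase D that cleaves membrane phospholipids, ran from 1224 to 2185 in line libraries and from 118 to 242 in Col libraries. The uncharacterized genes AT4G34881, AT5G49440 and AT2G11225 had line medians of 3463, 2973 and 2109 and Col medians of 2.55, 1.42 and 0.415. AT5G51630, AT4G07820 and AT5G45500 had line medians of 1584, 1305 and 1468 and Col medians of 0, 1.07 and 41.1. Of the 14 genes with no read in any Col library, the 6 with the highest line means were AT4G07455, AT3G60980, AT5G45240, AT2G17060, AT5G43040 and AT3G11370. Their line medians lay between 66.5 and 259. CNGC12, a cyclic nucleotide-gated channel with a role in defence, and ETP1, an F-box protein that targets the ethylene signalling protein EIN2, were picked out after their values were seen. CNGC12 had a line median of 547 and a Col median of 0, and ETP1 of 291 and 9.56.

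Among the 8 genes lower in the lines with the most normalized counts, TPS25, a terpene synthase, ran from 30.3 to 187 in line libraries (median 95.8) and from 1517 to 4477 in Col libraries (median 2450). PI4KG3, a phosphatidylinositol 4-kinase of the gamma type, ran from 56.9 to 163 in line libraries and from 835 to 2352 in Col libraries. AT5G42090, annotated as a transmembrane receptor, had a line median of 102 and a Col median of 926. The other 5 of these 8 genes, AT5G15360, AT2G34655, AT4G18150, AT3G58875 and AT5G03090, had line medians of 0 to 28.7 and Col medians of 543 to 1496. Their products are uncharacterized except for a putative kinase (AT4G18150) and a Mto 1 responding down protein (AT5G03090).

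On a list of 34 genes known to vary between accessions, 28 passed the filter. Of these, 2 had every line library above every Col library and 3 had every one below, against 3.06% of tested protein-coding genes that the rule did not pick. RPP1, a TIR-type NLR for downy mildew resistance, ran from 310 to 753 in line libraries and from 113 to 152 in Col libraries. ERECTA, a receptor kinase of shoot growth, ran from 11.8 to 53.3 in line libraries and from 65.1 to 174 in Col libraries. AOP3, a dioxygenase of glucosinolate synthesis, ran from 0 to 8.46 in line libraries and from 32.6 to 1236 in Col libraries. AT1G71920, a histidine biosynthesis gene, ran from 0 to 1.99 in line libraries and from 8.65 to 46.1 in Col libraries. It is a near copy of AT5G10330, so its reads are uncertain.

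Members lay on all 5 chromosomes. The counts for chromosomes 1 to 5 were 24, 16, 28, 26 and 32, or 0.447%, 0.506%, 0.691%, 0.830% and 0.671% of the tested protein-coding genes there. Genes higher in the lines numbered 18, 12, 18, 18 and 19 on them and genes lower in the lines 6, 4, 10, 8 and 13. Of 121 windows of 1 Mb that hold tested genes, 70 held a member. The fullest, from 18 to 19 Mb on chromosome 5, held 6 of 176 tested genes. The longest stretch between neighbouring members was 5.85 Mb.

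Close neighbours were common. Within 20 kb of another member lay 33 of the 126 (26.2%), in 16 clusters of 2 or 3 genes. Of these, 10 held genes higher in the lines only, 3 held genes lower in the lines only, and 3 held both states. In 12 neighbouring pairs no other protein-coding gene lay between. In TAIR10 coordinates, CSA1 (chr5:5908834-5913317, minus strand) and DAR4 (chr5:5916862-5923494, plus strand) are transcribed away from each other across 3544 bp, and are known as a pair of NLR partners. DAR4, whose protein adds a LIM domain to the NLR, ran from 513 to 670 in line libraries and from 0 to 40.4 in Col libraries. AT5G51620 and AT5G51630 lie 621 bp apart on chromosome 5 and both were near 0 in Col. AT5G45490 and AT5G45500 (chr5:18429047-18432430 and chr5:18432446-18435524) face each other 15 bp apart. The kit did not mark the strand, so reads at such convergent ends cannot be told apart. AT1G15885 lies 11 bp before the CC-type NLR gene AT1G15890, and PP2A8, PP2A6 and PP2A7 form the cluster of 3 on chromosome 5. The other clusters of genes higher in the lines were AT3G47675 with AT3G47680, AT3G60980 with AT3G61010, AT4G01910 with AT4G01920, AT4G07820 with AT4G07825, and AT4G19500 with AT4G19520.

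HTT4 and AT4G29770, both annotated as targets of trans-acting small RNAs, lie 351 bp apart on chromosome 4 and were both lower in the lines. HTT4 ran from 0 to 5.95 in line libraries and from 109 to 173 in Col libraries. AT3G43290 with AT3G43291, and AT5G26970 with AT5G27010, were the other clusters lower in the lines. The clusters that held both states were AT2G05632 (higher in the lines) with AT2G05635, AT4G32208 (higher) with AT4G32230, and AT5G36930 (higher) with AT5G36900. AT4G32208 had a line median of 96.9 and a Col median of 1.76, while AT4G32230, 5644 bp away, had a line median of 0 and a Col median of 337.

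**Figure D3:**
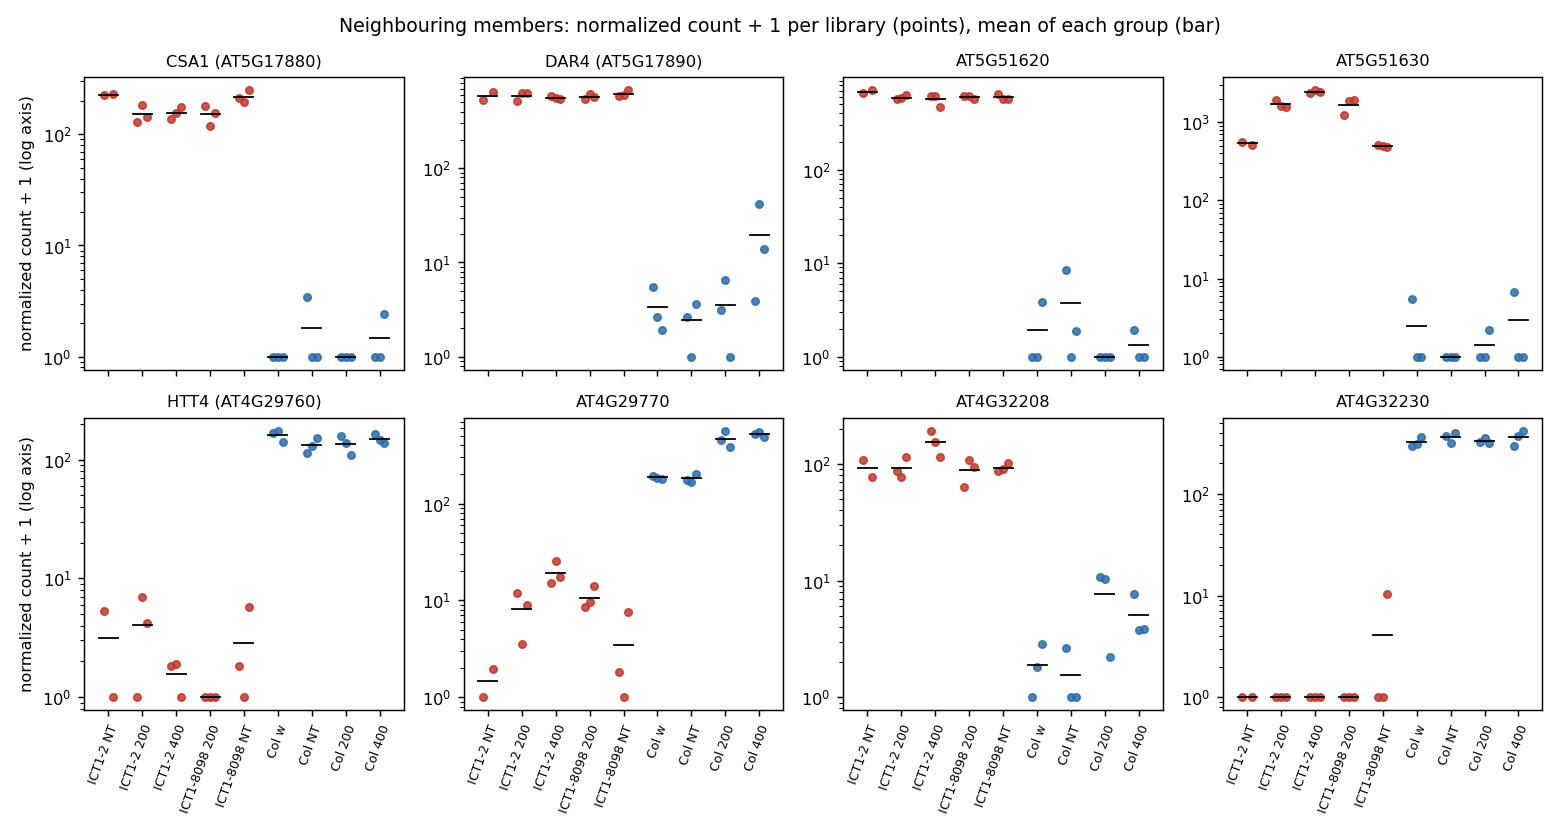
Normalized count + 1 (log axis) in every library (points) and group mean (bar) for 4 neighbouring pairs, with line groups in red on the left and Col groups in blue on the right of each panel. CSA1 with DAR4 and AT5G51620 with AT5G51630 were higher in the lines, HTT4 with AT4G29770 lower in the lines, and AT4G32208 with AT4G32230 held opposite states.

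Genes next to members often differed too without meeting the rule. Of the 154 nearest protein-coding neighbours that are not members, 29 (18.8%) had no overlap between line and Col libraries, 18 with the lines above and 11 with the lines below. Over all 20458 tested protein-coding genes that the rule did not pick the share was 3.06%. AT1G36922, beside AT1G36920, ran from 0 to 19.7 in line libraries and from 80.3 to 501 in Col libraries. It was picked out after its values were seen.

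The threshold cut through a continuum. Just inside it, AT4G19090 had a lowest line value of 111 against a bound of 106, and AT3G44695 had 21.3 against 20. Just outside, AT5G43030 had 26.9 against 27.1 and AT3G28880 had 29.5 against 29.96. In the other direction AT1G55440 had a lowest Col value of 67.7 against 66.9 and AT1G64260 had 66.5 against 65.1. Outside lay AT2G10553, with 25.8 against 27.5, and LCR44, with 22.2 against 23.9.

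Few members were called as different in level between the lines, a count that the rule itself lowers. It used every library of both lines, which disfavours genes that differ between them. Of the 41 genes lower in the lines, 27 also have a line median of 0. The test was limma on log2(normalized count + 1), with all 26 libraries in a single fit and Benjamini-Hochberg adjustment over 21180 genes (adjusted p under 0.05). Nothing in the labels says that replicates were separate cultures, so p-values measure only the spread between these samples. In that fit a member has 1 estimate of spread for its high and its low state, so a fit of the 14 line libraries alone, or of the 12 Col libraries alone, was added after seeing the data. Between ICT1-8098_NT and ICT1-2_NT, 1 of 126 members passed (AT3G58875, log2 fold change 1.05, SE 0.28, adjusted p = 0.0414), against 2.70% of all tested genes. It was 50.8, 45.6 and 50.8 in ICT1-8098_NT and 16.1 and 33.0 in ICT1-2_NT. The call ended without ICT1-2_NT replicate 1 (log2 0.56) and without any of ICT1-8098_NT replicates 1, 4 or 5 (1.03 to 1.10). Limma-voom on the recovered reads called 5 (2.76%). In the fit of the lines alone 3 of the 85 genes higher in the lines passed (4.24% of all tested genes, 1.12% higher and 3.12% lower). AT4G19520 (-0.92) and HR4 (-0.74) were lower in ICT1-8098_NT and AT4G34881 was higher (0.66). Between ICT1-8098_200 and ICT1-2_200, 0 of 126 members passed by limma in the fit of all groups, 6 had an unadjusted p under 0.05, and 0.609% of all tested genes passed. The fit of the lines alone called 0 of the 85 genes higher in the lines (1.34% of all tested genes), and voom on recovered reads 1 of 126 (0.732%), AT5G45240, which was lower in ICT1-8098_200. For the 41 genes lower in the lines the median log2 fold change between ICT1-8098_NT and ICT1-2_NT was 0.75, and 0 without ICT1-8098_NT replicate 5.

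I3C raised a few resistance genes in the lines, by up to 2.55 on the log2 scale. A smaller share of the 85 genes higher in the lines rose than of all tested genes. The rule used the same libraries, which disfavours genes that change much between groups. More members fell than rose when the lines were fitted alone. In ICT1-2_200 against ICT1-2_NT, 5 of the 85 genes higher in the lines passed in the fit of all groups, 3 up and 2 down. Over all tested genes 18.6% passed, 11.8% up and 6.76% down. In the fit of the lines alone 24 passed, 4 up and 20 down, against 24.1% of all tested genes (13.9% up and 10.2% down). In ICT1-2_400 against the same ICT1-2_NT libraries, 7 passed, 4 up and 3 down, against 31.4% of all tested genes (17.6% up and 13.7% down). The lines alone gave 22, 5 up and 17 down, against 37.5% (19.9% up and 17.6% down). In ICT1-8098_200 against ICT1-8098_NT, 9 passed, 4 up and 5 down, against 22.1% (14.2% up and 7.97% down). The lines alone gave 20, 4 up and 16 down, against 26.1% (15.8% up and 10.4% down). The share of members called in the fit of the lines alone was 28.2%, 25.9% and 23.5%, near or below that of all tested genes. Falls outnumbered rises among these calls in each contrast, while rises outnumbered falls over all tested genes. With limma-voom on the recovered reads, also added after seeing the data, 34, 24 and 22 of the 85 passed in these contrasts (20.5%, 32% and 23.3% of all tested genes), 28, 18 and 18 of them down. With total-read scaling 12, 19 and 10 passed, 9, 15 and 6 of them down, while the median of all tested genes moved to -0.27, -0.51 and -0.22. The median log2 fold change of the 85 was -0.38, -0.24 and -0.11 in ICT1-2_200, ICT1-2_400 and ICT1-8098_200, against -0.03, -0.07 and -0.04 for all tested genes.

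In the fit of all groups, 3, 4 and 4 of the 85 were called up in ICT1-2_200, ICT1-2_400 and ICT1-8098_200. All tested genes were called up at shares of 11.8%, 17.6% and 14.2%. The members called up were HR4 and 4 NLR genes. Of the 14 members named for disease resistance, 2, 3 and 3 rose in ICT1-2_200, ICT1-2_400 and ICT1-8098_200 (14.3%, 21.4% and 21.4%). These shares of the 14 lay near those of all tested genes. In the fit of the lines alone 3 of the 14 rose in each contrast, and 1, 2 and 1 fell. CSA1 fell in all of them in that fit (log2 -0.60, -0.55 and -0.54). AT4G19520, a TIR-type NLR, had 167 and 222 normalized counts in ICT1-2_NT, 673, 804 and 974.5 in ICT1-2_200 and 859, 780 and 669 in ICT1-2_400. In ICT1-8098_200 it had 638, 664 and 508, against 115, 91.1 and 101 in ICT1-8098_NT. All treated libraries of a line were above its untreated ones, and in Col the gene had a single read in 12 libraries. Its log2 fold changes were 2.06 (SE 0.31, adjusted p = 2.9e-05) and 1.98 (SE 0.31, adjusted p = 2.6e-05) at 200 and 400 µM in ICT1-2, and 2.55 (SE 0.28, adjusted p = 1.9e-07) in ICT1-8098. No single library ended these calls.

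HR4 had 222 and 319 in ICT1-2_NT, 946, 834 and 1023 in ICT1-2_200 and 1239, 1457 and 1174 in ICT1-2_400. It had 839, 820 and 690 in ICT1-8098_200, against 168, 142 and 168 in ICT1-8098_NT. Treated and untreated libraries did not overlap in either line. The log2 fold changes were 1.80, 2.27 and 2.29 (adjusted p = 0.0197, 0.00231 and 0.00091). The first call ended without ICT1-2_NT replicate 1 (1.54) or 2 (2.06), or without ICT1-2_200 replicate 2 (1.79) or 5 (1.73). The gene stayed between 0 and 7.38 in Col.

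AT5G45240, a TIR-type NLR with no read in any Col library, had 66.4 and 81.6 in ICT1-2_NT, 231, 343 and 227 in ICT1-2_200 and 160, 154 and 76.4 in ICT1-2_400. It had 161, 154 and 116 in ICT1-8098_200, against 40.0, 45.6 and 29.1 in ICT1-8098_NT. It rose at 200 µM in both lines (log2 1.82 and 1.89, SE 0.38 and 0.34, adjusted p = 0.00131 and 0.000196), and in ICT1-2_400 its range overlapped that of ICT1-2_NT. AT5G51630, another TIR-type NLR, had 555 and 519 in ICT1-2_NT, 1928, 1608 and 1560 in ICT1-2_200 and 2359, 2558 and 2448 in ICT1-2_400. It had 1226, 1884 and 1929 in ICT1-8098_200, against 517, 489 and 487 in ICT1-8098_NT. Its log2 fold change was 2.19 in ICT1-2_400 (adjusted p = 0.0117) and 1.72 in ICT1-8098_200 (adjusted p = 0.0331). At 200 µM in ICT1-2 it was 1.65 and passed in the fit of the lines alone only. The ICT1-2_400 call ended without ICT1-2_NT replicate 1 (2.24) or 2 (2.14). That in ICT1-8098 ended without any of ICT1-8098_NT replicates 1, 4 and 5 (1.71 to 1.75) or ICT1-8098_200 replicates 3 and 4 (1.63 and 1.61). The neighbour AT5G51620, of an uncharacterized family, stayed at 469 to 705 in all line libraries.

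AT5G05400, an NLR, rose at 400 µM in ICT1-2. It had 254 and 262 in ICT1-2_NT, 181, 246 and 192 in ICT1-2_200 and 1082, 1060 and 1475 in ICT1-2_400, and the log2 fold change at 400 µM was 2.20 (SE 0.40, adjusted p = 0.000173). In ICT1-8098_200 it had 165, 382 and 512, against 179, 229 and 209 in ICT1-8098_NT, and these overlapped.

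**Figure D4:**
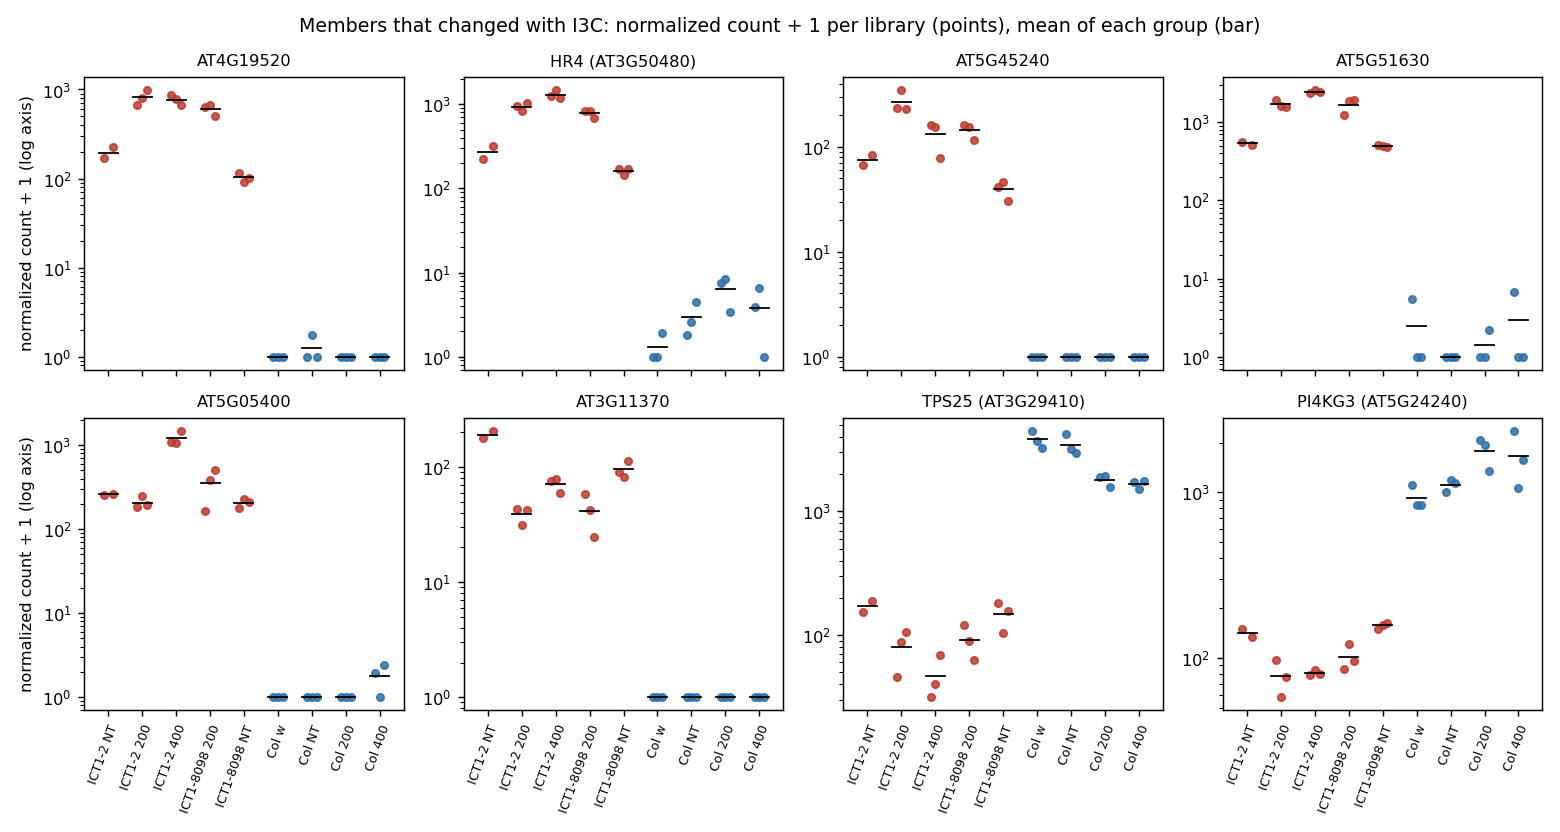
Normalized count + 1 (log axis) in every library (points) and group mean (bar) of 8 members that passed the test for I3C, with line groups in red and Col groups in blue. AT4G19520 and HR4 sit higher in I3C than in NT in both lines and stay near 0 in Col, while TPS25 is lower with I3C on both sides and PI4KG3 is lower with I3C in the lines and higher in Col_200.

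Among the members that fell, AT3G11370, a C1-domain protein gene with no read in Col, had 177 and 205 in ICT1-2_NT, 41.9, 30.6 and 41.6 in ICT1-2_200 and 74.6, 77.2 and 58.4 in ICT1-2_400. It had 57.0, 41.7 and 23.6 in ICT1-8098_200, against 89.1, 80.8 and 113 in ICT1-8098_NT. It did not overlap between treated and untreated libraries of a line. The log2 fold changes were -2.31, -1.44 and -1.26 (adjusted p = 0.000153, 0.00761 and 0.0111). The second call ended without ICT1-2_NT replicate 2 (-1.33) and the third without ICT1-8098_200 replicate 4 (-0.92) or ICT1-8098_NT replicate 5 (-1.13). The C1-domain gene AT5G43040 fell in ICT1-2_200 (-1.41, adjusted p = 0.0173), a call that ended without ICT1-2_200 replicate 2 (-1.19) or ICT1-2_NT replicate 2 (-1.16). In ICT1-2_400 the receptor-like kinase gene AT2G28990 (-1.10) and the NLR gene AT2G17060 (-1.03) fell, with adjusted p = 0.0266 and 0.0304. AT2G28990 lost its call without ICT1-2_400 replicate 3 or 5, or either ICT1-2_NT library (-1.29 to -0.90), and AT2G17060 without any of the 5 libraries (-1.22 to -0.84).

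In ICT1-8098_200, 5 of the 85 fell. Besides AT5G45500 they were JAL12, a jacalin-type lectin (-1.32, adjusted p = 0.0216), AT3G11370, AT5G45490 (-1.09, adjusted p = 0.0470) and the C1-domain gene AT1G55380 (-1.02, adjusted p = 0.0355). JAL12 lost its call without ICT1-8098_200 replicate 2 (-1.33) or 4 (-1.14) or ICT1-8098_NT replicate 4 (-0.81). AT5G45490 lost it without any of the 6 libraries (-1.16 to -1.03), and AT1G55380 without any but ICT1-8098_200 replicate 4 (-1.10 to -0.85). AT5G45500, which faces AT5G45490, had 760, 736 and 906 in ICT1-8098_200, against 1618, 1514 and 1475 in ICT1-8098_NT. It fell by 0.94 on the log2 scale (SE 0.22, adjusted p = 0.00294), and no single library ended this call.

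The 200 µM contrasts of the lines share no library. Of the 5 and 9 genes higher in the lines that were called in ICT1-2 and ICT1-8098, 4 were called in both (80% and 44.4%), all in the same direction. In the fit of the lines alone, 12 of 24 and 20 were shared (50% and 60%), 4 up and 8 down. The same overlap over all tested genes was not counted, so these shares do not set the members apart. The log2 fold changes of the lines had a Pearson r of 0.80 across the 85 genes, 0.34 across the 41 genes lower in the lines and 0.53 across all 126, against 0.78 across all 21180 tested genes. Of the 41 genes, 27 have a line median of 0. The median log2 fold change of the 41 in ICT1-8098_200 was -0.71, and 0 without ICT1-8098_NT replicate 5. The r of the 41 thus does not compare responses of the lines. The value for the 85 is close to that of all tested genes. Genes share libraries and are not independent replicates, so this is a description.

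**Figure D5:**
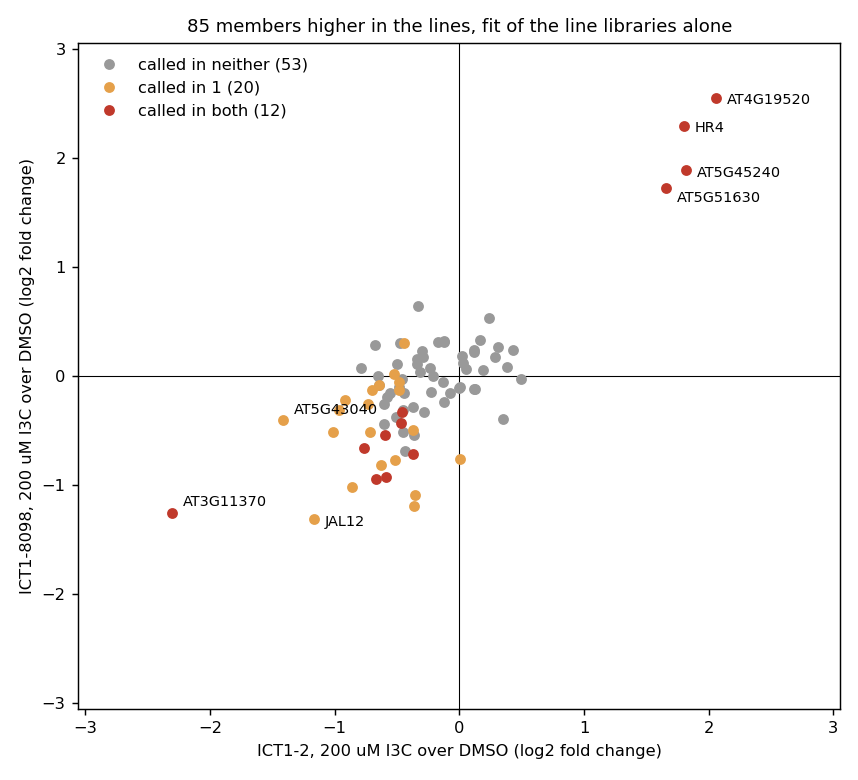
Log2 fold change of 200 µM I3C over DMSO in ICT1-2 (horizontal) and in ICT1-8098 (vertical) for the 85 genes higher in the lines, coloured by the number of contrasts in which the gene passed in the fit of the line libraries alone. AT4G19520, HR4, AT5G45240 and AT5G51630 lie together at 1.65 to 2.55, and 8 genes passed as lower in both lines.

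In Col, where the 41 genes lower in the lines are in their high state, few passed. The rule used the same libraries, the wounding group included, which disfavours genes that change much between Col groups. In Col_200 against Col_NT 3 of 41 passed, 2 up and 1 down, against 28.9% of all tested genes (15% up and 13.9% down). In Col_400 against Col_NT 3 passed, 1 up and 2 down, against 35.8% (18.4% up and 17.4% down). The fit of Col alone gave 2 (21.3% of all tested genes) and 6 (27.4%), the 6 being TPS25, AT4G29770, AT3G58875 and, named after their values were seen, TPS06 (a terpene synthase, log2 -1.39), AT1G36920 (-1.17) and AT1G35500 (-0.82). These contrasts share Col_NT. Limma-voom called 6 and 7 of the 41 in them (27.2% and 34.7% of all tested genes). The 85 genes higher in the lines passed the filter through the line libraries, so no count of them is given for Col. AT2G13965, an uncharacterized gene among these picked out after its values were seen, had 0.82, 1.55 and 0.88 in Col_NT, 9.73, 9.23 and 21.8 in Col_200 and 8.59, 8.36 and 5.74 in Col_400. The 3 libraries of each treated group were thus above those of Col_NT, at a level of few reads. The gene was at 203 to 295 in all line libraries.

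TPS25 fell with I3C in both states. It had 152 and 187 in ICT1-2_NT, 44.9, 86.6 and 105 in ICT1-2_200 and 30.3, 39.1 and 67.4 in ICT1-2_400. It had 4195, 3211 and 2953 in Col_NT, 1904, 1947 and 1573 in Col_200 and 1728, 1517 and 1760 in Col_400. Treated and untreated libraries did not overlap in either. The log2 fold changes were -1.18 and -1.94 in ICT1-2 (adjusted p = 0.0119 and 5.9e-05) and -0.92 and -1.04 in Col (adjusted p = 0.0183 and 0.00716). In ICT1-8098 the ranges overlapped and the value was -0.71 (adjusted p = 0.0866). The Col_200 call ended without Col_200 replicate 5 (-0.83) or Col_NT replicate 3 (-0.77), and that of ICT1-2_200 without ICT1-2_200 replicate 2 (-0.82) or ICT1-2_NT replicate 2 (-1.03).

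AT4G29770 rose with I3C in both states, at levels of few reads in the lines. In the lines it had 0 and 0.97 in ICT1-2_NT, 10.96, 2.55 and 8.01 in ICT1-2_200 and 13.9, 24.5 and 16.5 in ICT1-2_400. It had 7.54, 8.51 and 12.98 in ICT1-8098_200, against 0.83, 0 and 6.58 in ICT1-8098_NT. In Col it had 172, 168 and 202 in Col_NT, 456, 561 and 387 in Col_200 and 524, 550 and 480 in Col_400. The log2 fold changes were 2.37, 3.74 and 2.12 in ICT1-2_200, ICT1-2_400 and ICT1-8098_200 (adjusted p = 0.0042, 1.9e-05 and 0.00323), and the first of these calls ended without ICT1-2_NT replicate 1 (1.88). They were 1.36 and 1.52 in Col (adjusted p = 0.0487 and 0.0228). The Col_200 call ended without any of its 6 libraries (1.22 to 1.49), and the Col_400 call without Col_400 replicate 4 (1.47) or Col_NT replicate 3 (1.49) or 4 (1.47). The fit of Col alone gave adjusted p = 6.7e-05 and 2.3e-05 for the same fold changes. Its neighbour HTT4 did not pass in any of these contrasts. AT3G58875 fell in Col_400, with 509, 382 and 437 in Col_400 against 584, 1055 and 894 in Col_NT (log2 -0.90, adjusted p = 0.00685). That call ended without Col_NT replicate 4 (-0.72).

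PI4KG3 had fold changes of opposite sign on the 2 sides, but its rise in Col was not called when Col was fitted alone. In the lines it had 149 and 132 in ICT1-2_NT, 95.7, 56.9 and 76.1 in ICT1-2_200 and 77.9, 83.6 and 79.4 in ICT1-2_400. It had 84.6, 121 and 94.4 in ICT1-8098_200, against 148, 157 and 163 in ICT1-8098_NT. In Col it had 1004, 1184 and 1135 in Col_NT, 2088, 1938 and 1344 in Col_200 and 2352, 1060 and 1579 in Col_400. Libraries did not overlap between treated and untreated plants except in Col_400, where the test was not passed. The log2 fold change was -0.90, -0.80 and -0.65 in ICT1-2_200, ICT1-2_400 and ICT1-8098_200 (adjusted p = 0.0129, 0.0183 and 0.0393), against 0.67 in Col_200 (adjusted p = 0.0276). In the fit of Col alone the adjusted p was 0.0916 in Col_200 and 0.167 in Col_400. Each of these calls ended without 2 to 5 of the single libraries, among them every untreated library of ICT1-2 and of ICT1-8098, with values of -0.99 to -0.71, -0.88 to -0.71, -0.69 to -0.54 and 0.55 to 0.69. The difference between ICT1-2 and Col in the log2 response was -1.57 at 200 µM (SE 0.34, adjusted p = 0.0312) and -1.31 at 400 µM (SE 0.34, adjusted p = 0.0413). Between ICT1-8098 and Col it was -1.32 at 200 µM and did not pass (SE 0.32, adjusted p = 0.0868). Both ICT1-2 calls ended without single libraries, the first without 6 of the 11 (-1.66 to -1.38) and the second without 10 of the 11 (-1.40 to -1.03).

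Most members are at or near 0 on 1 side, where an interaction test cannot compare responses, so its counts are given without a reading. In the interactions of ICT1-2 with 200 and 400 µM I3C and of ICT1-8098 with 200 µM, 4, 3 and 2 of 126 passed, against 0.68%, 2.22% and 0.264% of all tested genes. Limma-voom called 1, 1 and 0 (0.217%, 1.67% and 0.0708%). Besides PI4KG3 they were AT4G19520, AT3G11370 and AT2G13965, which have at most a few reads in untreated Col plants, so for these 3 genes the test does not compare responses on both sides. The AT4G19520 interactions in ICT1-2 ended without ICT1-2_NT replicate 1 (2.13 and 2.05), as did that of AT2G13965 at 400 µM (-2.16), and that of AT3G11370 without 9 of the 11 libraries (-2.41 to -2.16). For leaf wounding, 0 of the 41 genes lower in the lines passed in the fit of all groups, against 2.47% of all tested genes. The fit of Col alone called 0 of the 41 (1.13% of all tested genes), and limma-voom 0 of the 41 (3.23%). GSL-OH, which is higher in the lines but not silent in Col, passed in the fit of all groups. GSL-OH had 412, 239 and 294 in Col_w and 272, 85.8 and 59.7 in Col_NT (log2 1.45, SE 0.35, adjusted p = 0.0218), which overlapped. The call ended without Col_NT replicate 4 or 5 or Col_w replicate 1 or 4, at values up to 1.48.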

How the data were processed

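Roots of 9 groups of seedlings were profiled by RNA sequencing with a kit that does not mark the strand. HTSeq 0.6.1, TopHat2 2.1.0 and DESeq2 1.18.1 are the tools listed in the submitters' processing notes, with TAIR10 as the build. Their roles are not given in the sources used here. The deposited table packs the libraries' values into a single cell per gene, and these were read in the order of its header. The deposited values are normalized counts, each a count divided by a size factor per library. All of them were whole reads within 0.1 of a read once divided by the value of 1 read. ICT1-2_NT replicate 5 was not analysed here. The 26 libraries held a median of 14169036 reads. Limits of 3 reads cover counting error only.

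The test covered genes that reached 10 normalized counts in 3 or more libraries (21180 genes, 20588 of them protein-coding). limma 3.58.1 in R 4.3.3, with a mean-variance trend, was fitted to log2(normalized count + 1) of all groups, so fold changes of low genes are understated. P-values were adjusted by Benjamini-Hochberg over all tested genes. The test was checked on simulated data. Count models had been planned for recovered reads and were not run, because the packed column is not a count column. limma with voom on those reads, scaled by the deposited size factors, was added after seeing the data.

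The members and gene lists were chosen with earlier results of these data known. Genes named are the 8 with the highest mean per state, the 6 highest among those at 0 on the low side, and up to 4 rises and 4 falls per contrast. They also include those nearest the threshold, those within 20 kb of another member, list members, and interaction calls whose low state averaged at least 10. Alternatives were other filters, scalings, pseudocounts and sample sets, a replicate block, and leaving out each library. Upstream sequence came from the RefSeq TAIR10.1 genome, in which 99.969% of 32548 matched genes have the same start as in the deposited table. Python 3.11.15 with numpy 2.4.6, pandas 2.3.3 and matplotlib 3.10.9 was used.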

Additional observations from a re-analysis of the deposited data

Results flagged for a closer look

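The interaction test of I3C response between a line and Col passed for 4 members (limma, Benjamini-Hochberg adjusted p under 0.05 over 21180 genes). For 3 of them untreated Col was at 0 to 1.55 normalized counts, so the test sets a response against a level near 0 and does not show that responses differ. For AT4G19520 the log2 response was higher in ICT1-2 than in Col by 2.34 at 200 µM and 2.26 at 400 µM (adjusted p = 0.0091 and 0.00442), and higher in ICT1-8098 by 2.82 at 200 µM (adjusted p = 0.000793). For AT2G13965 it was lower than in Col, by -3.06 and -2.22 in ICT1-2 at 200 and 400 µM (adjusted p = 0.00155 and 0.00963) and by -2.61 in ICT1-8098 (adjusted p = 0.00466). In Col this gene had 0.82 to 1.55 normalized counts untreated and 5.74 to 21.8 with I3C. For AT3G11370 the difference was -2.31 in ICT1-2 at 200 µM (adjusted p = 0.044). AT3G11370 had no read in Col, so its value is the response of ICT1-2 itself. AT4G19520 had a single read in Col, and the lines' own log2 responses were 2.06, 1.98 and 2.55 in the same order. PI4KG3 was read on both sides, and its difference was -1.57 at 200 µM and -1.31 at 400 µM in ICT1-2 (adjusted p = 0.0312 and 0.0413). At 200 µM every treated library was below the untreated ones in ICT1-2 and above them in Col, but the rise in Col was not called in the fit of Col alone (adjusted p = 0.0916).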

How the results depend on the processing

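The rule gave 126 to 130 members when single libraries were left out, 170 and 99 with factors of 2 and 8, 93 with an offset of 50, 115 and 125 with total-read and TMM scaling, and 204 with no offset and a highest library of at least 20. Members called changed with the fit, and the contrasts are given as Col_200, Col_400, ICT1-2_200, ICT1-2_400 and ICT1-8098_200 against their untreated groups (12, 15, 8, 11 and 11 calls). These counts over all 126 include members near 0 on the side tested, so they describe the fits and not a response. On the side where members are high the calls were 3, 3, 5, 7 and 9. The fit of one side alone gave 5, 9, 26, 25 and 22 calls, and limma-voom on recovered reads 8, 12, 35, 26 and 23. Fitting only the groups compared gave 4 in Col_200 and 15, 17 and 19 in the lines. The authors' deposited table calls 20, 22 and 18 in the lines. Scaling by total reads gave 15 and 18 in Col (4 up and 11 down, 3 up and 15 down, against 7 and 5, 6 and 9) and 17 and 25 in ICT1-2, and a pseudocount of 5 gave 15 and 19. Total-read scaling moved the median of all genes to -0.33, -0.34, -0.27, -0.51 and -0.22 in the 5 contrasts. For Col_w the groups compared, Col alone and the authors' deposited table gave 0. For ICT1-8098_NT against ICT1-2_NT the lines alone and the authors' deposited table gave 3, voom 5, and no filter, total reads and the replicate block 0. Between treated lines voom gave 1, against 0. The interactions of ICT1-2 with 200 and 400 µM and of ICT1-8098 with 200 µM gave 1, 1 and 0 with voom. The groups compared gave 0 in both 200 µM interactions, and a pseudocount of 5 gave 8 at 400 µM and 4 in ICT1-8098. Leaving out single libraries gave 8 to 14, 11 to 16, 5 to 7, 6 to 13 and 6 to 12 in the 5 contrasts, 0 to 2 in Col_w, 0 to 1 between untreated lines, 0 to 0 between treated lines, and 1 to 5, 0 to 5 and 2 to 3 in the interactions. The cause was not tested.

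Replicate numbers did not pair the libraries: over 62 pairs with the same number in different groups the correlation of deviations ran from -0.24 to 0.30, and 13 were over 0.1. The replicate block gave 7 calls in ICT1-2_400 and 2, 1 and 1 in the interactions. Of 68 single-member changes called, the alternatives lost the call in 270 refits, kept it in 836 and reversed 0. The planned quasi-likelihood and negative-binomial count tests were not run. Depth limits low states, since 3 reads equal 2.32 to 5.54 normalized counts.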

Other observations

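Outside the members, classes to which they belong are given beside the shares of all tested genes. Of 122 other tested genes with a C1 domain, 30.3%, 27.0% and 18.0% fell in ICT1-2_200, ICT1-2_400 and ICT1-8098_200, each against its untreated group, where 6.76%, 13.7% and 7.97% of all tested genes fell. Of the 122, 1, 3 and 2 rose. In Col_200 and Col_400, 41.8% and 53.3% fell, against 13.9% and 17.4% of all tested genes. Of the 6 members with a C1 domain, 2, 1 and 2 fell and 0 rose in the lines in the same contrasts, and 3, 4 and 2 fell in the fit of the lines alone. Of 144 other genes annotated for disease resistance, 17.4%, 14.6% and 18.8% rose in the lines in that order, against 11.8%, 17.6% and 14.2% of all tested genes, and 8.33%, 16.7% and 9.03% fell, against 6.76%, 13.7% and 7.97%. In Col_200 and Col_400, 13.2% and 15.3% of them rose, against 15% and 18.4%, and 15.3% and 18.8% fell, against 13.9% and 17.4%, so these shares lay near those of all genes. Of 148 other lectin and phloem protein 2 genes, 21.6%, 20.3% and 20.9% rose in the lines and 24.3% in each Col contrast, while 10, 15 and 18 genes fell in the lines and 17 and 19 in Col. These differences in share were not tested. Contrasts of the same genotype share their untreated libraries.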
